A study of Mus musculus with 2 samples.

Results

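The constitutive proteasome genes of mouse bone marrow-derived macrophages were described in 2 RNA-seq libraries. Members were the protein-coding genes whose symbols follow the Psma, Psmb, Psmc, Psmd, Psme, Psmf and Psmg numbering, without the 5 immunoproteasome genes Psmb8, Psmb9, Psmb10, Psme1 and Psme2. That rule found 43 genes of 55536 annotated genes, and it uses symbols and annotated transcript types, not measured values. Both libraries came from C57BL/6J macrophages given 100 ng/ml lipid A, the TLR4-activating part of bacterial lipopolysaccharide, for 12 h, then kept without it for 12 h, and given 100 ng/ml again for 120 min. One label field names this agent lipid A and others name it lipoprotein A. Both libraries belong to that 1 group (replicates 1 and 2) and carry 1 donor identifier, and the labels give neither age nor sex. Their spread may therefore be technical, and every p-value here measures only the difference between these libraries. No other treatment was analysed here, so the data give levels and their spread, not a response to lipid A.

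The proteasome is the main protease of the cytosol and nucleus and degrades proteins tagged with ubiquitin. Its 20S core is a barrel of stacked alpha and beta rings, in which some of the beta subunits cut peptides. The 19S regulatory particle caps the barrel: a base with a ring of ATPases unfolds the substrate and feeds it into the core, and a lid removes the ubiquitin chain. Chaperones assemble each part. In cells exposed to interferon, catalytic beta subunits are replaced by immunoproteasome subunits, which shape the peptides shown on MHC class I molecules. The transcription factors NRF1 and NRF2 are known to drive proteasome genes in many cell types.

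Depth was 45341960 expected counts over annotated genes in replicate 1 and 32087664 in replicate 2. All 7 macrophage markers stood at 10 TPM or more (the deposited abundance, scaled for transcript length) in both libraries, and none of 7 lymphoid markers reached 1 TPM in both. Some markers of neutrophils and platelets differed between the libraries. The summed level of 7 neutrophil markers was 61.1 TPM in replicate 1 and 5.57 TPM in replicate 2, with Ly6g listed at 0 in both. The sum came mainly from S100a9 (26.4 and 1.18 TPM), S100a8 (25.8 and 3.72 TPM) and Ngp (7.99 and 0.4 TPM). Camp, Elane and Mpo stood under 1 TPM in both libraries, with Mpo at 0.16 and 0.17 TPM. Among platelet markers Pf4 stood at 271 and 95.2 TPM, but Ppbp only at 2.83 and 0.58 TPM and Itga2b at 0.4 and 0.09 TPM. The globin genes Hba-a1 and Hbb-bt were listed at 0. Their part in the differences between libraries described here was not tested.

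Promoter sequences are shown first because proteasome genes are known to be controlled together at transcription. RefSeq promoters of build GRCm38.p6 (250 bases before to 50 after the start) were matched by symbol for 35 members. Psma8, Psmb1, Psmb2, Psmb7, Psmc3, Psmd3, Psmd7 and Psmg2 had no entry. All motifs were searched on both strands as the letters given here. Matches of different motifs overlapped in 2 members only, Psmd9 (TGACNNNGC with GGGCGG) and Psme4 (CCGGAAGT with GGGCGG). TGACNNNGC is the core of the antioxidant response element, to which NRF1 and NRF2 bind, and these stretches hold it in capitals, read on the gene's strand:
Psmb5: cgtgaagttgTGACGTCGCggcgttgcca
Psmb6: ctaaagagagTGACGGAGC
Psmd9: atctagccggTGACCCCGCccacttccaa
Psmc6: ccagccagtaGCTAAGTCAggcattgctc
The windows lie at chr14:54618024-54618052 (minus strand), chr11:70525338-70525356, chr5:123228149-123228177 and chr14:45329587-45329615 (plus strand), and Psmc6 carries the motif on the opposite strand. Their first motif base lay 47 bases before the RefSeq start in Psmb5, 9 in Psmb6, 31 in Psmd9 and 227 in Psmc6. Psmd12 and Psme4 also held a match, which made 6 of 35 members (17.1%). The share was 13.99% of 27025 genes with a promoter and 17.2% of the 7831 of them that code for protein and reached 1 TPM in both libraries. The member share was close to that of detected genes.

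CCGGAAGT, a site of the ETS family (GABPA and related factors), is shown because its share among members was, in ratio, the farthest of the searched motifs from the share over all promoters. The motif is in capitals, as ACTTCCGG where it lies on the opposite strand:
Psmc1: tggtggatgcACTTCCGGcggtggcgat
Psmc2: accagtgagcACTTCCGGgatggggctc
Psmd12: tgagcgggcgACTTCCGGtgcgagtgac
Psmd6: agagacgcgaCCGGAAGTcagactggcg
Psme4: tggccccgccCCGGAAGTgacttgaggc
These windows lie at chr12:100110163-100110190, chr5:21785180-21785207, chr11:107479500-107479527, chr14:14120973-14121000 (minus strand) and chr11:30771712-30771739. Psmc2 has another RefSeq promoter, which holds a further match. With Psma6, Psmd13, Psme3 and Psmg3, 9 of 35 members (25.7%) held the motif, against 4.31% of all genes with a promoter and 10.8% of detected protein-coding genes. CCAAT was found in 37.1% of members, 41.1% of all genes and 42.97% of detected genes. GGGCGG, a core of SP1 sites, was found in 57.1%, 38.2% and 69.8%. A match is a run of letters and not evidence of binding, and no test was made of these shares.

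Nearly all members were expressed, most of them well above the typical detected gene. In both libraries 42 of 43 members stood at 1 TPM or more, 38 at 10 TPM or more and 18 at 100 TPM or more. The median member stood at a mean of 105 TPM, and the median of the 9773 protein-coding genes at 1 TPM or more in both libraries was 18.2 TPM. The median member lay at percentile 86.9 of those genes, and 36 members lay above their median. The members' part of all expected counts was 0.403% in replicate 1, and it was 0.352% in replicate 2. Levels ordered the members similarly in the libraries (Spearman rho 0.90 over 43 genes, which share library and length within each gene).

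**Figure D1:**
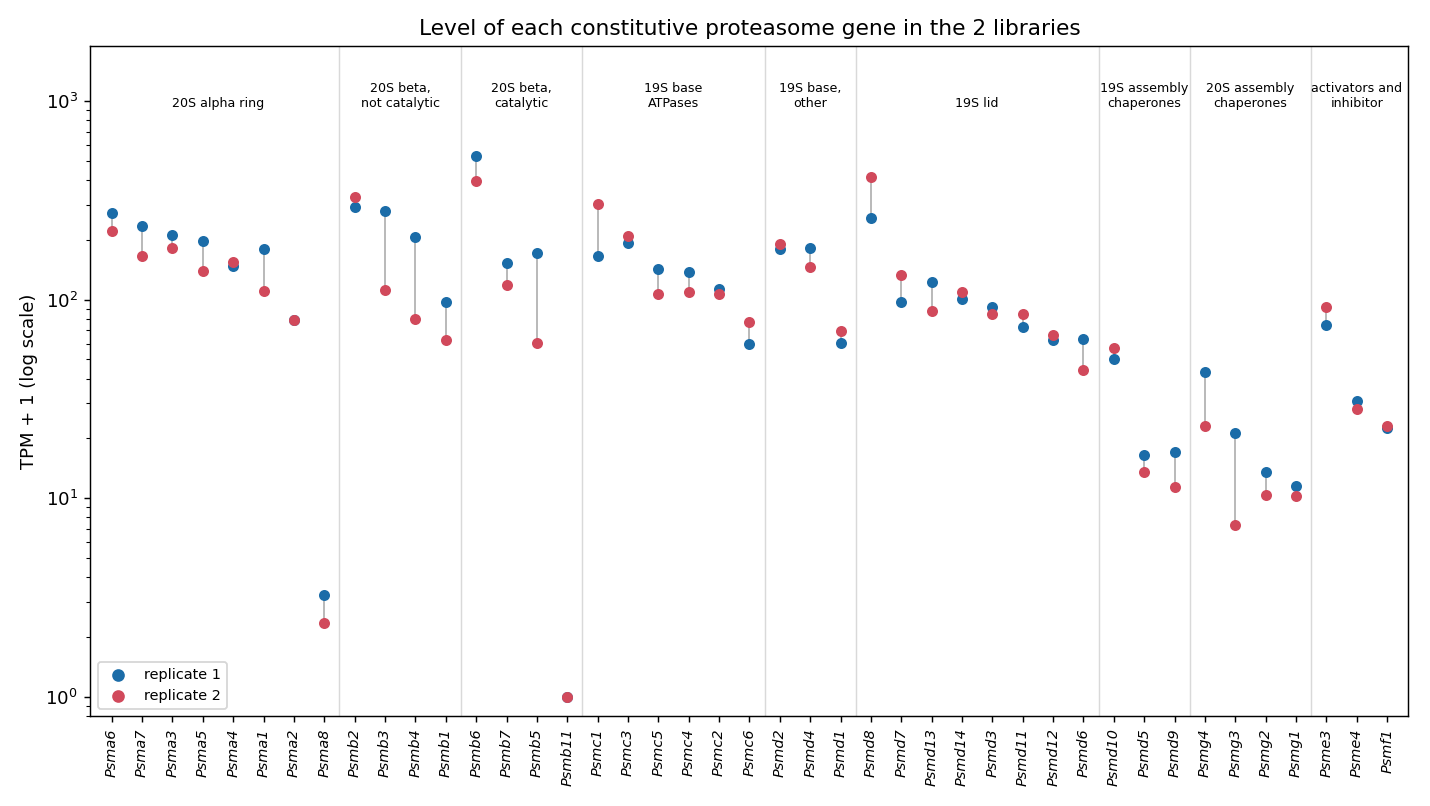
Level of each of the 43 members as TPM + 1 on a log axis, with 1 point for each library joined by a line and genes grouped by role. Psmb6 has the highest mean (462 TPM), assembly chaperones lie lower, and Psmb11 is listed at 0 in both libraries.

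The alpha ring forms the gate of the core. Its 7 widely expressed genes ranged in mean level from 78.3 to 247 TPM. Psma6 was the highest, at 272 TPM in replicate 1 and 222 TPM in replicate 2 (247 ± 35.3, SD, n = 2). Psma7 gave 233 and 165 TPM, and Psma3, whose tail helps to close the gate, 211 and 181 TPM. Psma5 stood at 198 and 138 TPM and Psma1 at 179 and 110 TPM. In these 5 genes replicate 1 was the higher library. The second quantification, made without an alignment file, gave Psma3 only 131 and 94.0 TPM, the lowest value relative to the gene table (0.574 on the mean) among members at 1 TPM or more. Psma4 (148 and 153 TPM) and Psma2 (78.5 and 78.1 TPM) differed little. Psma8 encodes the alpha subunit of the testis and takes the place of Psma7 there. It stood at 2.24 and 1.36 TPM, on 59 and 41 reads, far below every other member of the ring.

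The beta subunits that do not cut were Psmb1, Psmb2, Psmb3 and Psmb4. Psmb2 stood at 291 TPM in replicate 1 and 330 TPM in replicate 2. Psmb3 stood at 279 and 112 TPM, Psmb4 at 207 and 78.9 TPM, and Psmb1 at 96.2 and 61.8 TPM. Psmb2 was thus the only 1 of these 4 that was not lower in replicate 2. The SD of Psmb3 (195 ± 118, n = 2) and Psmb4 (143 ± 90.4) was over 0.5 of the mean.

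Psmb5, Psmb6 and Psmb7 encode the constitutive subunits that cut peptides. Psmb6, with caspase-like activity, had the highest mean of all members, at 530 TPM in replicate 1 and 394 TPM in replicate 2 (462 ± 95.9, SD, n = 2), where Psmd8 was higher. Psmb7, with trypsin-like activity, stood at 151 and 118 TPM. Psmb5, with chymotrypsin-like activity and the target of bortezomib, stood at 172 and 59.7 TPM. Psmb6 was 3.09 times as high as Psmb5 in replicate 1 and 6.61 times in replicate 2. Immunoproteasome subunits can replace each of these subunits, so a core need not hold equal numbers of them. Psmb11, the thymus-specific subunit of cortical epithelial cells, had 0 reads in each library. A count of 0 allows a level of up to 0.0662 CPM in replicate 1 and 0.0935 CPM in replicate 2 (3 reads, counting error only).

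Immunoproteasome counterparts of the cutting subunits held more than an equal share of the transcripts. Psmb5, Psmb6 and Psmb7 summed to 853 TPM in replicate 1 and 572 TPM in replicate 2, and Psmb8, Psmb9 and Psmb10 summed to 1393 and 787 TPM. The constitutive subunits therefore held 38.0% and 42.1% of the 6 genes' TPM. The balance differed by site. Psmb8 was 4.69 and 7.90 times Psmb5, and Psmb10 was 2.46 and 1.72 times Psmb7, while Psmb6 was 2.47 and 3.50 times Psmb9. All 3 ratios kept their direction in both libraries, but their size differed between libraries. Without an untreated sample, these shares cannot be ascribed to lipid A.

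The 6 ATPases of the 19S base had mean levels from 67.3 to 234 TPM. Psmc1 stood at 164 TPM in replicate 1 and 304 TPM in replicate 2. Psmc3 gave 193 and 207 TPM. Psmc5 gave 141 and 106 TPM, Psmc4 137 and 108 TPM and Psmc2 112 and 106 TPM. Psmc6 was the lowest, with 58.9 and 75.8 TPM. The ATPases act as 1 ring of equal parts, and their transcripts were 3.48-fold apart from the lowest to the highest mean. Psmc1 also stood out by a short transcript in replicate 2, described with the transcripts.

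The other base subunits receive substrates. Psmd2, a scaffold on which ubiquitin-like domains dock, stood at 179 and 190 TPM. Psmd4, a ubiquitin receptor, stood at 182 and 145 TPM. Psmd1, the other large scaffold, was lower at 59.5 and 68.3 TPM. Adrm1, a further ubiquitin receptor of the base that lies outside the naming rule, stood at 94.6 and 86.6 TPM.

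Among the 8 lid genes 1 stood apart. Psmd8 was the member next below Psmb6, at 256 TPM in replicate 1 and 414 TPM in replicate 2 (335 ± 111, SD, n = 2). The values of the other lid genes ran from 43.5 to 132 TPM. Psmd14, the enzyme that cuts the ubiquitin chain off the substrate, stood at 99.99 and 109 TPM. Its partner Psmd7, a scaffold with the same fold but no activity, stood at 96.4 and 132 TPM. Psmd13 gave 122 and 87.1 TPM, Psmd3 91.3 and 84.0 TPM and Psmd11, which clamps lid to core, 71.5 and 83.3 TPM. Psmd12 (61.5 and 65.7 TPM) and Psmd6 (62.5 and 43.5 TPM) were the lowest. Psmd7, Psmd11, Psmd12, Psmd14 and Psmd8 were higher in replicate 2, and the other 3 in replicate 1.

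Genes for assembly had a lower median than the subunits they assemble, although Psmd10 was level with the lid gene Psmd6. The chaperones of the 19S base were Psmd10 (gankyrin) with 49.3 and 56.4 TPM, Psmd5 with 15.6 and 12.5 TPM, and Psmd9 with 16.0 and 10.4 TPM. The 20S chaperones work as pairs, PAC1 with PAC2 and PAC3 with PAC4. Psmg1 (PAC1) stood at 10.5 and 9.26 TPM and Psmg2 (PAC2) at 12.6 and 9.41 TPM. Psmg4 (PAC4) gave 42.1 and 22.0 TPM and Psmg3 (PAC3) 20.4 and 6.29 TPM. The median of all 7 chaperones was a mean of 13.4 TPM, against 159 TPM for the 14 widely expressed core subunits and 109 TPM for the 17 subunits of the 19S particle. Pomp, the maturation factor consumed in core assembly and not a member by name, stood at 444 and 413 TPM, far above these chaperones.

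The alternative caps and the inhibitor come next. Psme3 (PA28 gamma), an ATP-independent activator of the nucleus, stood at 73.3 and 91.3 TPM, above 5 of the 17 subunits of the 19S particle on the mean. Psme4 (PA200), known for its part in spermatogenesis, stood at 29.8 and 27.1 TPM. Psmf1 (PI31), named as an inhibitor, stood at 21.6 and 22.1 TPM. The mean of Psme1 and Psme2, the interferon-inducible activator, was 9.73 times Psme3 in replicate 1 and 6.27 times in replicate 2.

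In the order of mean level, only 7 of 42 pairs of neighbours had values that did not overlap between the genes. Those breaks lay below Psmb2, Psmd14, Psmd10, Psme4, Psmf1, Psmg1 and Psma8. The 20 genes at ranks 4 to 23, from Psma6 to Psmd14, formed a run without a break, in which neighbours were not resolved by these libraries.

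Subunits of the same particle did not have equal transcript levels. Psmb5, Psmb6 and Psmb7 can be replaced by immunoproteasome subunits, so they need not enter the core in equal numbers. The SD of the mean log2(TPM + 1) was 0.71 over the 14 widely expressed core subunits and 0.72 over the 17 subunits of the 19S particle. The highest and lowest core subunits were 6.76-fold apart in replicate 1 and 6.61-fold in replicate 2. Psmb6 was the highest in both libraries, and Psmb5 was the lowest in replicate 2. In the 19S particle the range was 4.36-fold and 9.53-fold, with Psmd8 at the top in both. TRiC, a chaperonin ring of 8 different subunits, had an SD of 0.25 and ranges of 1.55-fold and 2.59-fold. For the COP9 signalosome, a relative of the lid, the SD was 0.78 over 9 genes, and for the initiation factor eIF3 it was 1.33 over 14 genes, some of which are paralogs. No test was made of these differences.

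The libraries were then compared gene by gene. Ratios of replicate 2 over replicate 1 were taken from expected counts, with 0.5 reads added to each and library sizes scaled by TMM, a trimmed mean over genes, where the mean was at least 10 counts. Of 42 members tested, 29 were higher in replicate 1 and 13 in replicate 2, and 51.8% of all 12552 genes tested were higher in replicate 1. The median log2 ratio was -0.26 for members and -0.03 for all genes. An exact two-sided binomial test, in which counting is the sole source of noise, called 28 members higher in replicate 1 and 11 higher in replicate 2 at an adjusted p of at most 0.05. That test called 65.1% of all genes, 33.1% higher in replicate 1 and 32% higher in replicate 2. Most members are deeply counted: 36 had a mean of at least 1000 counts, of which 35 were called, and in that range the test called 84.5% of all genes. Psma8, Psmc6 and Psmg1 were not called. Fold changes are therefore given for the members. Psmd2, Psmf1 and Psmc3 were called higher in replicate 1 (log2 ratios -0.26, -0.18 and -0.08), although their TPM was higher in replicate 2.

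At least 1.5-fold differences were found for 8 members higher in replicate 1 and 1 higher in replicate 2. The background was 16.7% of genes for the first direction, 13.5% for the second and 30.2% for either. By counts Psmg3 was 2.94-fold higher in replicate 1 (95% exact interval 2.33 to 3.77, on 379 and 87 reads). Psmb5 was 2.82-fold higher (2.61 to 3.06), Psmb4 2.64-fold (2.49 to 2.79) and Psmb3 2.43-fold (2.28 to 2.597). These 4 were the members over 2-fold apart, and 6.09% of all genes were at least 2-fold higher in replicate 1. Psmg4 (1.86-fold), Psma1 (1.61-fold), Psmb1 (1.54-fold) and Psmd13 (1.53-fold) made up the 8. Psmd8 was 1.63-fold higher in replicate 2 (1.58 to 1.68), and Psmc1 was next at 1.48-fold. The genes farthest apart are spread over the genome (mm10): Psmg3 at chr5:139823592-139826885, Psmb5 at chr14:54614119-54618022, Psmb4 at chr3:94884093-94886961, Psmb3 at chr11:97703399-97713500 and Psmd8 at chr7:29174188-29180701. These intervals cover counting error only, and with 1 library on each side the ratios have no replicate check.

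Ratios are next given by part of the particle, with no test between parts. Among 20S core subunits replicate 1 was higher in 12 of 15 tested, and their median log2 ratio was -0.39. For 19S subunits the count was 9 of 17, with a median of -0.07. The non-catalytic beta subunits had the lowest median of the core, -0.95, and the 20S chaperones had -0.65, with 4 of 4 higher in replicate 1. The lid had a median of 0.10. The 5 immunoproteasome genes had a median of -0.82. In ratios of TPM the 19S median was 0.10, on the other side of 0, while the core median was -0.50.

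**Figure D2:**
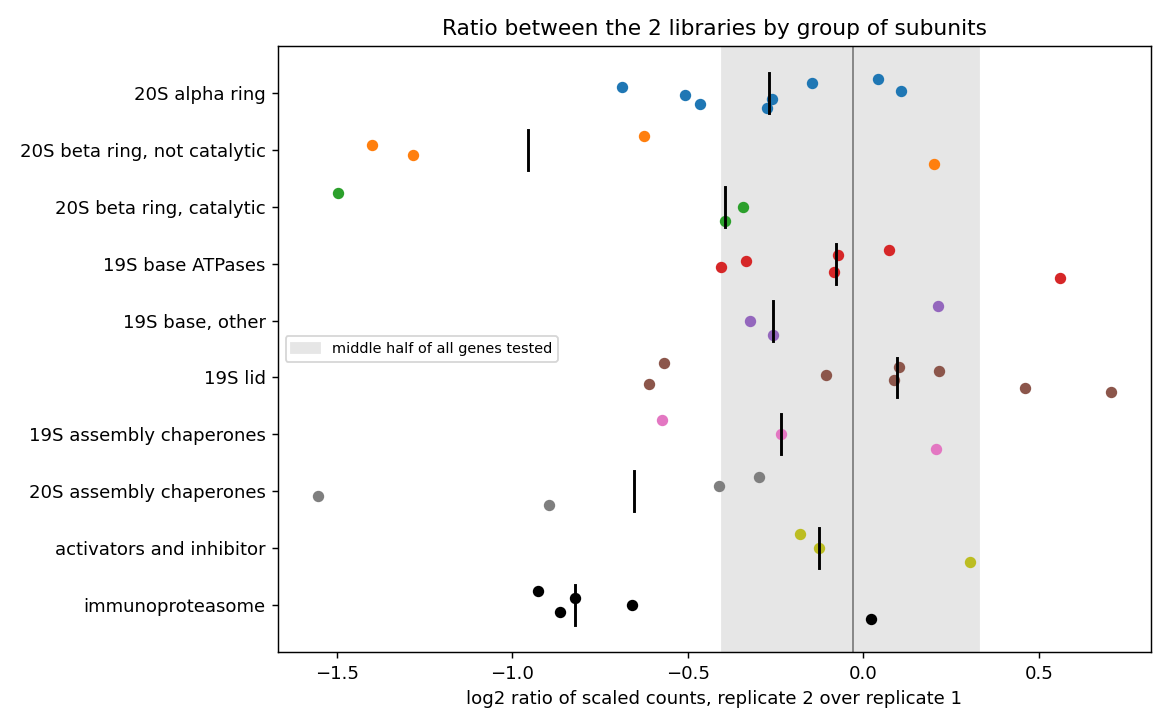
Log2 ratio of scaled counts, replicate 2 over replicate 1, for each tested gene (points), by group of subunits. Black bars are group medians, the grey band runs from -0.40 to 0.33, the lower to the upper quartile of the 12552 genes tested, and the grey line is their median of -0.03; the non-catalytic beta subunits and the 20S chaperones lie farthest to the left among the members.

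Transcript length and base composition moved with these ratios. Tested genes shorter than 1000 bases had a median log2 ratio of -0.42, and the 8 members among them had -0.68. From 1000 to 1500 bases the medians were -0.19 for all genes and -0.33 for 18 members, and from 1500 to 2500 bases they were -0.06 and 0.00 (10 members). At 2500 bases or more they were 0.08 and -0.14 (6 members). At a GC content of 55% or more the medians were -0.25 for all genes and -0.65 for 6 members. They were -0.07 and -0.33 from 50% to 55%, 0.11 and -0.15 from 45% to 50%, and 0.05 and 0.04 below 45%. Over 42 members, which share libraries, the ratio had a Spearman rho of 0.49 with length and -0.37 with GC. Over 12544 tested genes the values were 0.25 and -0.20. Core subunits had a median length of 1150 bases and 19S subunits of 1510 bases. With a cubic trend in length and GC removed over all genes, a step chosen after seeing the data, the core median was -0.25 and the 19S median 0.05, with -0.03 for all genes. Beyond this, the part of length and GC was not tested. Psmb4 (-1.22), Psmg3 (-1.18), Psmb5 (-1.12) and Psmb3 (-0.96) then remained the lowest 4 members, and Psmb6 moved from -0.39 to -0.01.

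**Figure D3:**
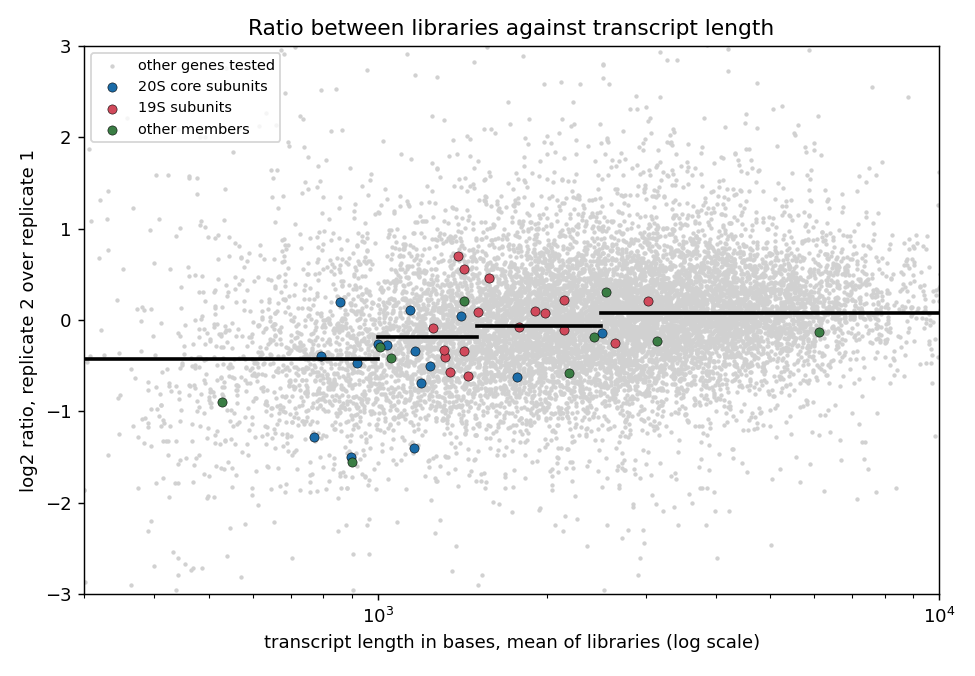
Log2 ratio between libraries against transcript length on a log axis, for members (coloured by part of the particle) and other genes tested (grey), with black lines at the median of all genes in 4 length classes. The line rises from -0.42 in the shortest class to 0.08 in the longest, and 174 genes, none of them members, lie outside the axes, which end at 300 and 10000 bases and at log2 ratios of -3 and 3.

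The deposited credibility intervals of TPM, whose level the sources used here do not give, did not overlap between libraries for 31 members, 22 of them higher in replicate 1. Among protein-coding genes at 1 TPM or more in both libraries this held for 53.4%. That share was not matched for depth, and most members are deeply counted. Of 86 member values, 26 lay outside their own interval, so the intervals were not used further.

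Most members came from 1 main transcript. In 25 of 42 genes the leading transcript held at least 90% of the gene's TPM in both libraries. In the other 17 it held less in at least 1 library. The second quantification gave 22 such genes, among them Psmd12 (76.2% and 72.1%) and Psme3 (72.1% and 67.9%). Psma3 and Psmd13 had most of their TPM in transcripts not annotated as protein coding. For Psma3 the lead was Psma3-201, annotated for nonsense-mediated decay, with 44.6% in replicate 1 and 42.6% in replicate 2. Transcripts of Psma3 not coding for protein held 73.3% and 66.3% in all. The second quantification gave them 90.2% and 93.7%, with Psma3-203 in the lead in replicate 1. For Psmd13 transcripts not coding for protein held 50.1% and 68.6%, led by Psmd13-211 with 38.9% and 39.9%. The retained-intron transcript Psmd13-207 held 9.65% and 27.5%.

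Several genes differed in makeup between the libraries. Psmc3 was led by Psmc3-202 in replicate 1 (56.0%, and 35.6% in replicate 2) and by Psmc3-210 in replicate 2 (63.3%, and 40.8% in replicate 1), which both code for protein. Psmd11 was led by Psmd11-214 in replicate 1 (50.7% and 37.8%) and by Psmd11-201 in replicate 2 (45.6% and 50.9%), but in the second quantification Psmd11-214 led in both (56.3% and 38.9%). In Psmc1 the processed transcript Psmc1-203, of 551 bases, held 2.95% in replicate 1 and 28.1% in replicate 2, on 41.1 and 504 estimated reads. Psmc1 was 1.85-fold higher in replicate 2 in TPM and 1.48-fold in scaled counts, and by construction a read of a short transcript adds more TPM. Psmd2-208, of 433 bases and annotated for nonsense-mediated decay, held 0.36% and 23.0%, on 3.24 and 153 estimated reads. The second quantification gave Psmd2-208 0.188% and 0%, all transcripts of Psmd2 not coding for protein 1.25% and 0.705%, and Psmd2 as a whole 136 TPM in replicate 2 in place of 190 TPM. The lead of Psmc6 held 94.8% in replicate 1 and 70.2% in replicate 2, and that of Psmg1 100% and 75.9%.

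**Figure D4:**
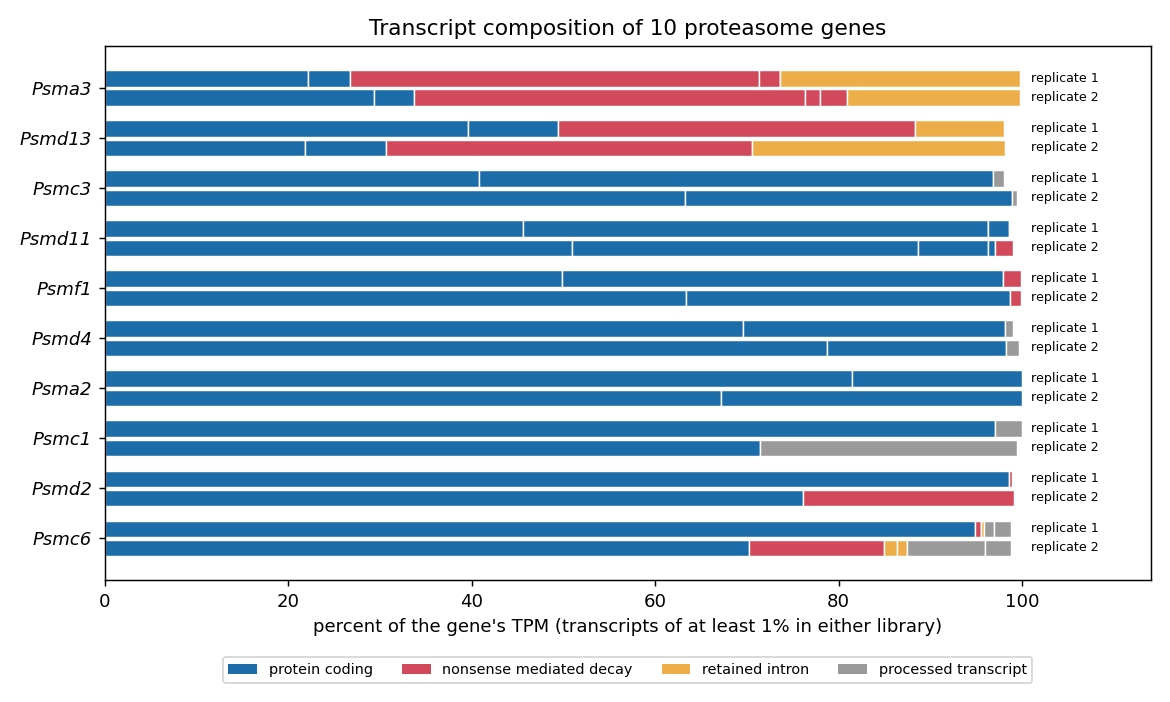
Percent of each gene's TPM in its transcripts of at least 1% in either library, for 10 members in replicates 1 and 2, coloured by annotated type. Psma3 and Psmd13 are mostly not protein coding, and Psmc1, Psmd2 and Psmc6 hold more of transcripts not coding for protein in replicate 2 than in replicate 1, which for Psmd2 is reversed in the second quantification (1.25% and 0.705%).

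Near-identical copies limit the counts of some members. In 20 members no stretch of 31 bases of the leading transcript occurred in another gene's transcripts, and in 11 members over 10% of such stretches did. The shares were 76.3% in Psma3, 74.0% in Psmb5, 66.8% in Psmb3 and 66.5% in Psma5, mainly with pseudogenes. A stretch of Psmb5 (coding bases 263 to 322, from the GENCODE transcript) and the same stretch of the pseudogene Gm3375 are shown to make this plain, with the 2 differing bases in capitals:
Psmb5: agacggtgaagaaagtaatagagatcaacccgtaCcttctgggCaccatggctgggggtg
Gm3375: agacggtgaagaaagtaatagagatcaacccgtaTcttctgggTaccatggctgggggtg
Gm3375 was assigned 8.26 and 0 reads, against 3297 and 790 for Psmb5. Gm13835, the closest copy of Psma3, was assigned 106 and 35.6 reads, against 4834 and 2732. Few reads were thus given to Gm3375 and Gm13835, but the reads of all copies of a member were not summed. How shared reads were divided cannot be checked from the deposited values. The log2 ratio was -1.28 for Psmb3 and -1.50 for Psmb5. Members that share no such stretch had ratios on both sides of 0. Among them were Psmb4 (-1.40, on whole counts of 5731 and 1471), Psma7 (-0.47) and Psmb2 (0.20). Whether shared reads had a part in the ratios of Psmb3 and Psmb5 was not tested. Psmb7 shared 33.5% of its stretches, mainly with the overlapping gene Nek6. In all, 18 members overlap another gene, 14 of them one on the opposite strand, and the sources used here do not say whether counting used strand.

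Genes around the proteasome that lie outside the rule gave context. Of the other proteasome proteins 10 of 11 symbols were matched, all 10 stood at 10 TPM or more, and Pomp, Adrm1, Zfand5 and Txnl1 were the highest. Their median log2 ratio was -0.00, with 3 called higher in replicate 1 and 2 higher in replicate 2. Over all genes tested, the same test called 33.1% higher in replicate 1 and 32% higher in replicate 2. Ubb, which encodes ubiquitin, stood at 1710 and 1504 TPM, and Rps27a, which encodes ubiquitin fused to a ribosomal protein, at 492 and 327 TPM. In the NRF1 pathway Nfe2l2, which encodes NRF2, stood at 250 and 460 TPM and Nfe2l1, which encodes NRF1, at 136 and 248 TPM. Ngly1 (16.2 and 19.6 TPM) and Ddi2 (10.2 and 15.0 TPM), which process NRF1, were lower, and Nfe2l3 was listed at 0. By scaled counts Nfe2l1, Nfe2l2 and Ddi2 were called higher in replicate 2, and Ngly1 was called higher in replicate 1 (log2 ratio -0.27), although its TPM was higher in replicate 2.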

How the data were processed

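Both libraries were polyA plus RNA-seq from 1 µg of RNA. Per the notes deposited with the samples, values refer to mm10 and GENCODE M21, and the gene and transcript tables were made from transcriptome alignments; the sources used here name no program. The deposited expected counts are estimated reads. The deposited TPM and FPKM values are scaled for length and depth, and the deposited percent values give each transcript's part of its gene. The authors' credibility bounds were read as a deposited signal on the TPM scale. A second deposited table of estimated counts and TPM, made without an alignment file, was summed to genes.

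Ratios used edgeR 4.0.16 TMM factors, with DESeq2 1.42.0 size factors as an alternative, and scipy 1.17.1 for the exact binomial test on rounded expected counts with Benjamini-Hochberg adjustment over 12552 genes. In data simulated for that comparison, with counting noise only, it called 70% of 100 genes changed 1.5-fold, 89% of 100 changed 2-fold and 0.0405% of 12352 unchanged genes. Every member is described; of other lists the 4 genes with the highest mean TPM are named, along with genes under 1 TPM in both libraries or past the test where they bear on a member. Some genes that this rule would name are not reported here. The rule for members reads no measured value, but the members as a group and the lists were chosen with earlier results of these data known.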

Additional observations from a re-analysis of the deposited data

How the results depend on the processing

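Of 70 alternative values, 57 stayed within 1.5 times (counts) or within the spread between libraries (levels, ratios and shares), 11 moved further and 2 changed sign. For median ratios that spread was taken from the ratios of the same members, so it is a wide limit. The catalytic share with 1 library left out stays within its spread by construction. The tally is therefore not a measure of how robust the results are. Both sign changes were of the 19S median log2 ratio (-0.07), which was 0.10 in ratios of TPM and 0.053 with the length and GC trend removed; the cause was not tested. The number of members at 100 TPM in both libraries (18) was 31 at 50 TPM, 4 at 200 TPM and 10 in FPKM, which follows from the threshold and the scale, and 20 to 21 with 1 library left out. The median log2 level (6.70) was 6.15 in FPKM and 6.51 in the second quantification, and 6.46 to 6.66 with 1 library left out. The SD of log2 levels over all 43 members (1.82) was 2.18 with a pseudocount of 0.1, 1.77 in the second quantification and 1.56 over members at 1 TPM or more, and 1.80 to 1.88 with 1 library left out. Over the 14 core subunits (0.71) it was 0.68 to 0.82 with 1 library left out. The members' median log2 ratio ran from -0.32 with library totals to -0.16 with the trend removed, below that of all genes in each setting. No paired analysis was possible because there is 1 group. Depth limits Psma8, Psmg1, Psmg2, Psmg3 and Psmg4, which had from 41 to 379 reads in a library.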
